A study of Mus musculus with 8 samples.

Results

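The cytosolic ribosomal protein genes encode the protein parts of the ribosome, the particle that reads messenger RNA and joins amino acids into protein. They were examined on 8 arrays of RNA from hematopoietic stem cells (HSCs) of mouse bone marrow, the cells that renew the blood. Members were the non-control probes whose gene name is Rpl, Rps or Rplp followed by a subunit number, together with Rpsa. These were 130 of the 41174 probes on each array, for 78 of 27745 gene names. The large subunit had 74 probes for 46 genes and the small subunit had 56 probes for 32 genes.

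Each array carried Cy3-labelled total RNA of 1 sample from mice of strain B6, hybridised to an Agilent expression array in a single colour. The groups were Nras+/+ (n = 2), with no mutant allele, NrasG12D/+ (n = 3), with 1 mutant allele, and NrasG12D/G12D (n = 3), with 2. NrasG12D is an activated form of the small signalling GTPase Nras. The labels give neither the age of the mice, nor how the allele was switched on, nor the sort that defined the HSCs, nor whether the samples are separate animals. The p-values below therefore measure only the spread between these samples, which may be technical.

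A ribosome joins a small subunit, which decodes the message, with a large subunit, which forms the peptide bond, and each protein is present once in most particles. The genes of both subunits are expressed in every cell type, and their messages share a short pyrimidine run at the cap that links their translation to growth signals. Blood is sensitive to their dose: loss of a single copy of several of these genes causes Diamond-Blackfan anaemia, and HSCs make protein slowly compared with their progeny.

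The HSC label was set against 14 marker genes on the array, of which 6 to 8 were well above background per array. Gata2, Procr and Tek were above background on no array. The summed level of the HSC markers, in units of the array's 75th percentile, was 3.31 to 4.28 in Nras+/+. It was 1.54 to 4.47 in NrasG12D/+, with the lowest value in replicate 1, and 1.25 to 3.95 in NrasG12D/G12D. The labelling service did not disclose its protocol. NrasG12D/+ replicate 1 stood apart: its mean correlation with the other arrays was 0.544, against 0.606 to 0.621 for each of the others. Of 8 mature neutrophil markers, 1 to 4 were above background per array, and Camp, Lcn2 and S100a8 on none. Their summed level, in units of the array's 75th percentile, was 1.07 to 1.24 in Nras+/+, 0.759 to 236 in NrasG12D/+ and 0.513 to 11.6 in NrasG12D/G12D. The value of 236 was that of NrasG12D/+ replicate 1. The brightest marker of the list was Mpo, the gene for myeloperoxidase, which granulocyte progenitors express, so the sum is not a measure of mature neutrophils alone. Of 8 T and NK cell markers, 2 to 5 were above background per array, with sums of 2.47 to 2.77, 0.849 to 6.89 and 2.16 to 11.9. Above background were also 4 to 8 of 10 erythroid and 4 to 6 of 8 B cell markers per array. The counts were 2 to 5 of 6 for monocytes and macrophages and 2 to 3 of 5 for megakaryocytes. The erythroid sum was highest in NrasG12D/+ replicate 3, and the next, 6.07, was in NrasG12D/G12D replicate 1. The part of NrasG12D/+ replicate 1 and of all these markers in the results below was not tested. Where they were computed, medians and counts over the family that rest on that array are also given without it.

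Levels are log2 processed signals minus the array's 75th percentile, so a level of 0 lies at that percentile and 1 unit is a doubling. Probes differ in how brightly they bind, so a level is compared between arrays for the same probe and never between probes. In such bulk samples fewer cells of a type and less RNA per cell cannot be told apart. Of the 130 ribosomal protein probes, 31 were well above background on all 8 arrays, 58 on 2 to 7, 19 on 1 and 22 on none. The 89 that passed the filter of at least 2 arrays were 68.5% of the family, against 44.7% of all probes. By subunit, 52 of 74 large subunit probes (70.3%) and 37 of 56 small subunit probes (66.1%) passed.

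Some of the best known members were barely measured. Rps6, the small subunit protein phosphorylated by S6 kinase, had 2 probes and Rpl11, a large subunit protein that binds the p53 regulator Mdm2, also had 2, and none of these 4 was above background on any array. The same held for the genes Rpl10a, Rpl27 and Rplp1, the last encoding a protein of the stalk that recruits elongation factors. A further 9 genes were above background on 1 array at most, among them Rpl5, the partner of Rpl11 in binding Mdm2. In all, 64 genes had a probe that could be tested and 27 had one above background on all 8 arrays.

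Detection differed by where the probe lay, by the transcript it was designed to and by its base composition. Of 12 ribosomal protein probes that start at base 1000 or later of their transcript, 1 passed the filter, against 74.6% of the 118 that start earlier. Over all probes on the array the corresponding shares were 41.5% and 50.8%. Ribosomal protein probes designed to a RefSeq mRNA passed in 71.8% of 110 cases, and those to another transcript or clone in 10 of 20. Most of the 12 late probes are of the second kind, and the 2 splits were not separated. Ribosomal protein probes with a G and C content at or above the family's median of 45% passed in 63 of 77 cases (81.8%), and those below it in 26 of 53 (49.1%). The same split over all probes gave 73.0% and 29.1%, so a difference by base composition was not particular to this family.

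**Figure D1:**
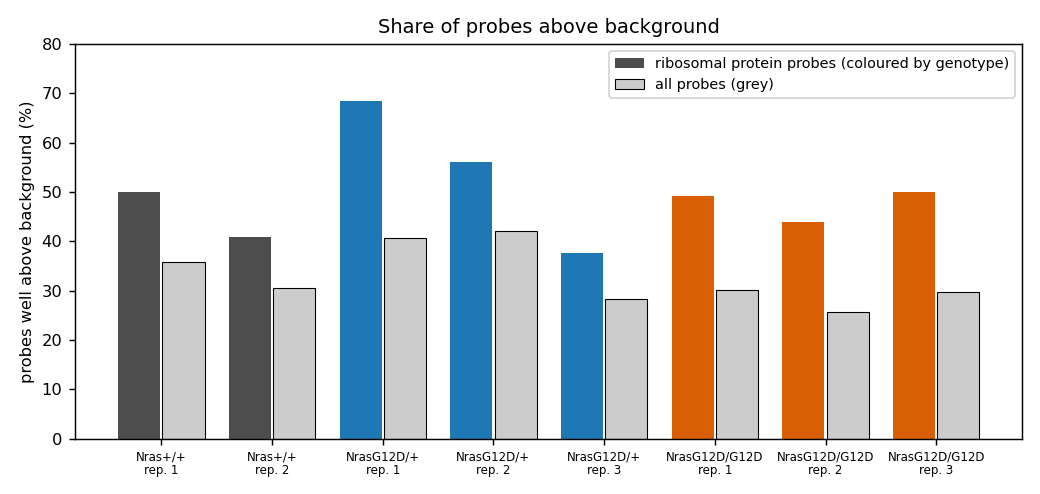
Share of probes flagged well above background on each array, in percent. Coloured bars are the 130 ribosomal protein probes, by genotype, and grey bars are all 41174 probes. The family lies above all probes on every array, from 37.7% in NrasG12D/+ replicate 3 to 68.5% in NrasG12D/+ replicate 1.

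Detection also moved from array to array within a genotype. The number of ribosomal protein probes above background was 65 and 53 on the Nras+/+ arrays, 89, 73 and 49 on the NrasG12D/+ arrays, and 64, 57 and 65 with both alleles mutant, each by replicate number. The NrasG12D/+ arrays held both the highest and the lowest count. Within that genotype 44 of the 130 probes were above background on all 3 arrays, 31 on none and 55 on only some. All probes together ranged from 25.7% to 42.0% above background, with the lowest share in NrasG12D/G12D replicate 2 and the highest in NrasG12D/+ replicate 2.

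What set the family apart in its values was the distance between arrays. The median range of a ribosomal protein probe over the 8 arrays was 6.36 log2 units among the 89 that passed the filter, against 3.32 for all 18418 probes that passed it. A range over 4 log2 units, that is 16-fold, was found for 64 of the 89 (71.9%) and for 34.7% of all probes. The spread lay within genotypes: the median SD among arrays of the same genotype was 2.07 log2 units for the family and 1.06 for all probes. It was not confined to dim probes, because the 31 ribosomal protein probes above background on all 8 arrays had a median within-genotype SD of 2.04, against 0.915 for the 6579 such probes on the array. Without NrasG12D/+ replicate 1 the median range was 4.05 for the family and 3.04 for all probes, and the median within-genotype SD was 1.47 against 1.01, or 1.37 against 0.847 for probes above background on all 8 arrays. These values are a description, with no test.

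Much of this spread came from single arrays that stood far above the rest. A probe is called high on an array here if it was at least 4 log2 units above its own median on the other arrays, a limit chosen after the values were seen. By this measure 46 of the 89 probes, of 37 genes, were high on at least 1 array (51.7%), against 15.4% of all probes. Of the 46, 31 were high on 1 array, 12 on 2 and 3 on 3 or more. NrasG12D/+ replicate 1 had 29 high ribosomal protein probes of 24 genes, 32.6% of the 89, where all probes had 4.35%. The other arrays had 7 and 0 in Nras+/+, 8 and 3 in NrasG12D/+ replicates 2 and 3, and 6, 5 and 7 in NrasG12D/G12D.

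The small subunit held more of the high probes on that array: 16 of 37 small subunit probes (43.2%) were high in NrasG12D/+ replicate 1, against 13 of 52 large subunit probes (25%). Over all arrays, this one included, 22 of 37 small subunit probes (59.5%) and 24 of 52 large subunit probes (46.2%) were high at least once. On the other 7 arrays the share that was high was 0% to 10.8% per array for the small subunit. For the large subunit it was 0% to 11.8%, so the excess of the small subunit was that of NrasG12D/+ replicate 1. A median over the family gives the same picture of this array. After subtracting each probe's own mean over the arrays, the family's median minus that of all probes was 1.40 in NrasG12D/+ replicate 1. It was below 0 on the other 7 arrays, from -1.05 in Nras+/+ replicate 2 to -0.06 in NrasG12D/G12D replicate 3. The large subunit median minus the small subunit median was -1.73 in NrasG12D/+ replicate 1 and between -0.22 and 0.91 elsewhere. No array but this one had a difference between the subunits below -0.22.

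**Figure D2:**
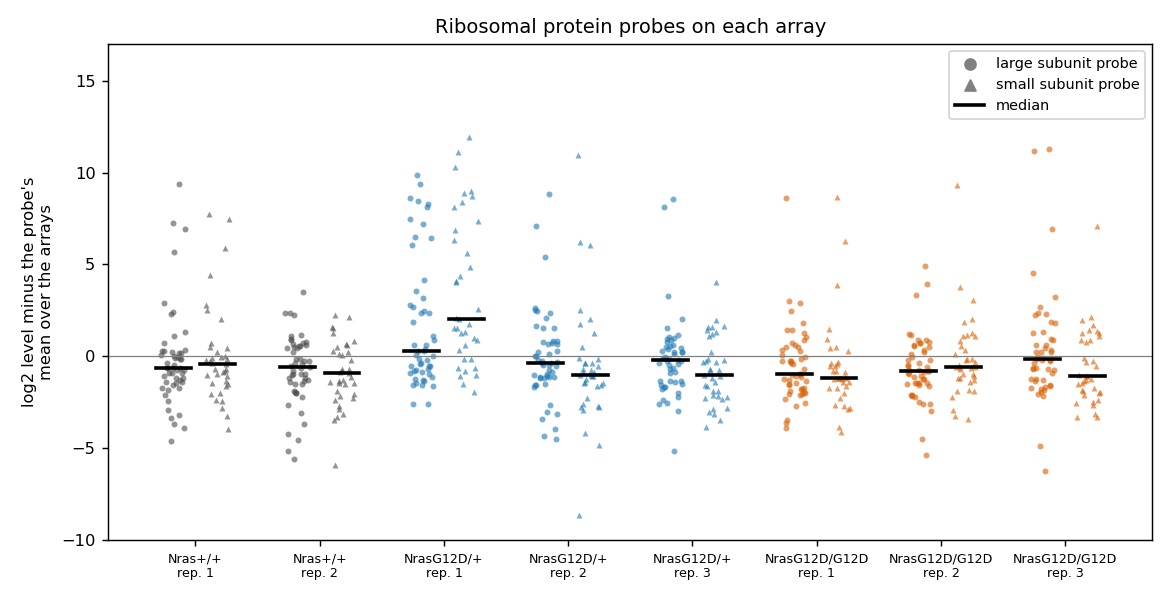
Log2 level of each of the 89 ribosomal protein probes that passed the filter, minus that probe's mean over the arrays, by array. Circles are large subunit probes, triangles small subunit probes and black bars their medians; the small subunit median of NrasG12D/+ replicate 1, at 2.02, is the highest, and probes above 5 occur on 7 of the 8 arrays.

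The genes high on 1 array can be followed by name. Rps23, a small subunit protein of the decoding centre, had levels of -2.14 and -1.38 in Nras+/+, 7.52, -2.80 and -1.95 in NrasG12D/+, and -3.17, -2.36 and -3.18 in NrasG12D/G12D. It was above background on all 8 arrays and high on only the first NrasG12D/+ array. Rpl23a, which lies beside the exit of the peptide tunnel, had levels of -1.41 and -1.45 in Nras+/+, 7.96, -2.08 and 0.10 in NrasG12D/+, and -3.04, -1.72 and -2.31 in NrasG12D/G12D. Rpl35, also of the large subunit, had levels of -2.60 and 0.01, then 7.59, -3.64 and -0.78, then -2.61, -1.98 and -0.06 in the same order. All 3 genes thus showed the same single array above the rest.

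Other members were high on other arrays as well or instead. Rps24, a small subunit protein mutated in some patients with Diamond-Blackfan anaemia, had levels of -1.60 and -2.79 in Nras+/+, 4.78, -2.88 and -1.51 in NrasG12D/+, and -2.74, 9.25 and -3.22 in NrasG12D/G12D. Its highest value was in NrasG12D/G12D replicate 2, with NrasG12D/+ replicate 1 next. Rpl13, of the large subunit, had levels of -4.10 and -2.14 in Nras+/+, -2.82, -3.63 and 8.34 in NrasG12D/+, and -2.93, -1.08 and 6.71 in NrasG12D/G12D, so 1 array of each mutant genotype was high. Rps29, of the small subunit, had levels of -3.09 and -2.12, then 6.51, 2.21 and -2.98, then -3.67, -2.77 and 7.28. In each of these genes the NrasG12D/+ and NrasG12D/G12D arrays overlapped. The set of high arrays differed from gene to gene, but single arrays were shared. NrasG12D/+ replicate 1 was high for Rps24 and Rps29, and NrasG12D/G12D replicate 3 for Rpl13 and Rps29.

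The widest ranges were of probes not above background everywhere, named here after their values were seen. Rpl26, a large subunit protein that also binds the p53 message, had levels of -4.58 and -4.49 in Nras+/+, 8.67, 8.88 and -5.11 in NrasG12D/+, and 8.68, -5.34 and -6.20 in NrasG12D/G12D. It was above background only on the 3 arrays where it was high, which lay close together. Rpl17, of the large subunit, had probes A_52_P109109 and A_52_P123268 above background on 2 arrays: they were at 4.25 and 6.89 in NrasG12D/+ replicate 1 and at 8.06 and 8.23 in NrasG12D/G12D replicate 3. Rps25, of the small subunit, was at 8.12 in NrasG12D/+ replicate 1 and at -2.71 or lower on the other arrays through probe A_51_P274768.

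Of the other probes above background on all 8 arrays, Rpl12, of the stalk base, was highest in NrasG12D/G12D replicate 3, at 3.77, and between -3.10 and 0.05 elsewhere. Rplp2, a stalk protein, lay between -2.18 and 2.83, Rpl18 between -0.99 and 3.77, Rpl32 between -2.59 and 1.51, and Rps2 through A_51_P362278 between -0.88 and 5.60. The highest array of these last genes was NrasG12D/+ replicate 1 for Rplp2, Rpl32 and Rps2 and NrasG12D/+ replicate 2 for Rpl18.

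**Figure D3:**
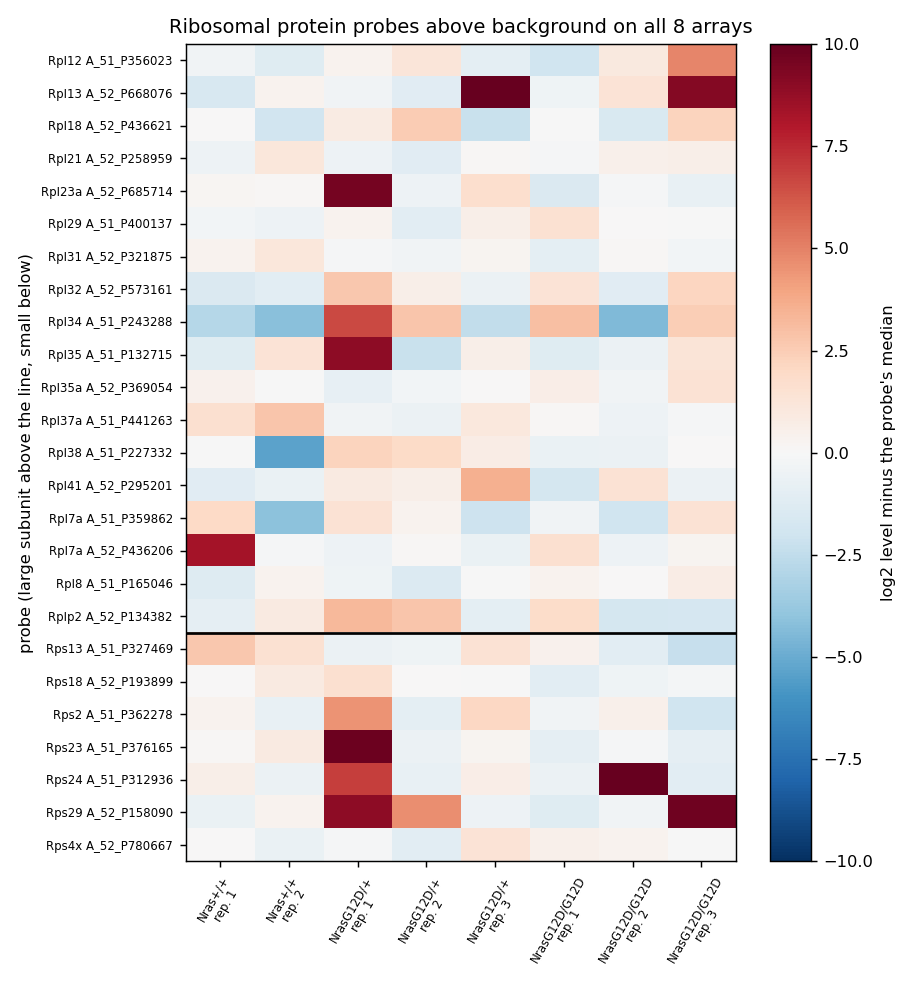
Log2 level minus the probe's median over the 8 arrays for 25 of the ribosomal protein probes above background and measured on all 8 arrays. Rows are probes, large subunit above the black line, and columns are arrays; dark red cells, such as Rps23, Rpl23a and Rpl35 in the NrasG12D/+ replicate 1 column, mark values 8 or more log2 units above the row's median, and rows such as Rpl8, Rpl21 and Rps4x stay pale.

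Some probes were steady instead, though not always every probe of their gene. The only probe of Rpl8, a core protein near the peptidyl transferase centre, ranged over 2.13 log2 units, with its lowest level in NrasG12D/+ replicate 2 and its highest, 3.63, in NrasG12D/G12D replicate 3. For Rpl31, A_52_P321875 ranged over 2.11; A_51_P452820, also above background on all 8 arrays, was flagged as an outlier spot on 6 of them. For Rpl29, A_51_P400137 and A_52_P217069 ranged over 2.55 and 2.51, but A_52_P505977 over 8.46. For Rpl35a, A_52_P369054 ranged over 2.32, but A_51_P509107 and A_52_P288669 over 9.06 and 7.74. For Rps18, A_52_P193899 ranged over 2.64, A_51_P274544 over 3.05 and A_51_P287677 over 5.07. The tested probes of Rpl29, of Rpl35a and of Rps18 thus differed in how far they ranged. Rpl21 probe A_52_P258959 ranged over 2.30 and Rps4x probe A_52_P780667 over 2.40, but neither is designed to a curated RefSeq mRNA of its gene. The RefSeq mRNA probes of both genes, A_52_P653937 and A_51_P267995, were each above background on 1 array.

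Where a gene had several probes, their levels on a high array could be set side by side. Probes that overlap cannot tell the gene from a stretch of it. Rps28 probes A_51_P335671 and A_52_P55271 share a run of 40 bases, and Rps21 probes A_52_P740562 and A_52_P678800 share 42. Rps28 and Rps21 are named here after their values were seen. For Rps28, of the small subunit, the probe A_52_P232909 had levels of -6.70 and -6.09 in Nras+/+, 8.39, -5.69 and -5.77 in NrasG12D/+, and 5.93, -6.02 and -6.05 in NrasG12D/G12D. It was above background on 2 arrays. The probe A_51_P335671, further along the transcript, had its highest levels on the same 2 arrays, 8.18 and 5.46. The third, A_52_P55271, was 8.31 on the first of them and was an outlier spot on the second. Rps21 had 3 probes with their highest levels, 3.43, 4.31 and 5.25, all in Nras+/+ replicate 1.

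Rpl36a, a large subunit protein on the X chromosome, was different, as 1 of its 3 probes was high on some arrays and the others were not. The probe A_52_P481880, from base 265 of the transcript, was at 6.77 and 7.67 in NrasG12D/+ replicates 1 and 3. The probes from bases 370 and 390, A_51_P283920 and A_52_P197926, stayed between -5.65 and -4.03 and between -6.72 and -1.79 over all arrays. Printed are the probes of Rps28 and Rpl36a that moved furthest between arrays, in lower case throughout. The files place the Rps28 probe on chromosome 17 at 33429198 to 33429257 and the Rpl36a probe on chromosome X at 129933857 to 129933916, each within 1 exon. They state no genome build for these positions.
Rps28 A_52_P232909: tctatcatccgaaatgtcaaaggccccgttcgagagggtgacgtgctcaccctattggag
Rpl36a A_52_P481880: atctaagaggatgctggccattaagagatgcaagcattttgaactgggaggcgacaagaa

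Rpl7a, a large subunit protein, gave a further pattern. Its probe A_52_P436206 had levels of 7.26 and -1.16 in Nras+/+, -1.54, -0.93 and -1.68 in NrasG12D/+, and 0.54, -1.58 and -0.77 in NrasG12D/G12D. Its probe A_52_P548790 had levels of 5.997 and -3.65, then -5.998, -4.14 and -4.75, then -5.28, -5.51 and -3.76. Both were high in Nras+/+ replicate 1 alone, and the positions of these probes overlap. The third probe, A_51_P359862, was at 4.73 there, but also at 4.21 in NrasG12D/+ replicate 1 and in NrasG12D/G12D replicate 3.

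There were 7 pairs of probes of the same gene that shared a run of at least 20 bases, and a pair had the same background flag on 4 to 8 arrays. The median distance between the centred levels of a pair was 0.41 to 1.01 log2 units, and the largest on any array was 6.41, for Rpl29 probes A_52_P505977 and A_52_P217069, which differ at 3 of 33 overlapping bases. Of the 7 pairs, 5 differed at 2 to 12 bases of their overlap. Ribosomal protein genes have many near-identical processed copies in the genome, and which copy a probe binds is uncertain.

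**Figure D4:**
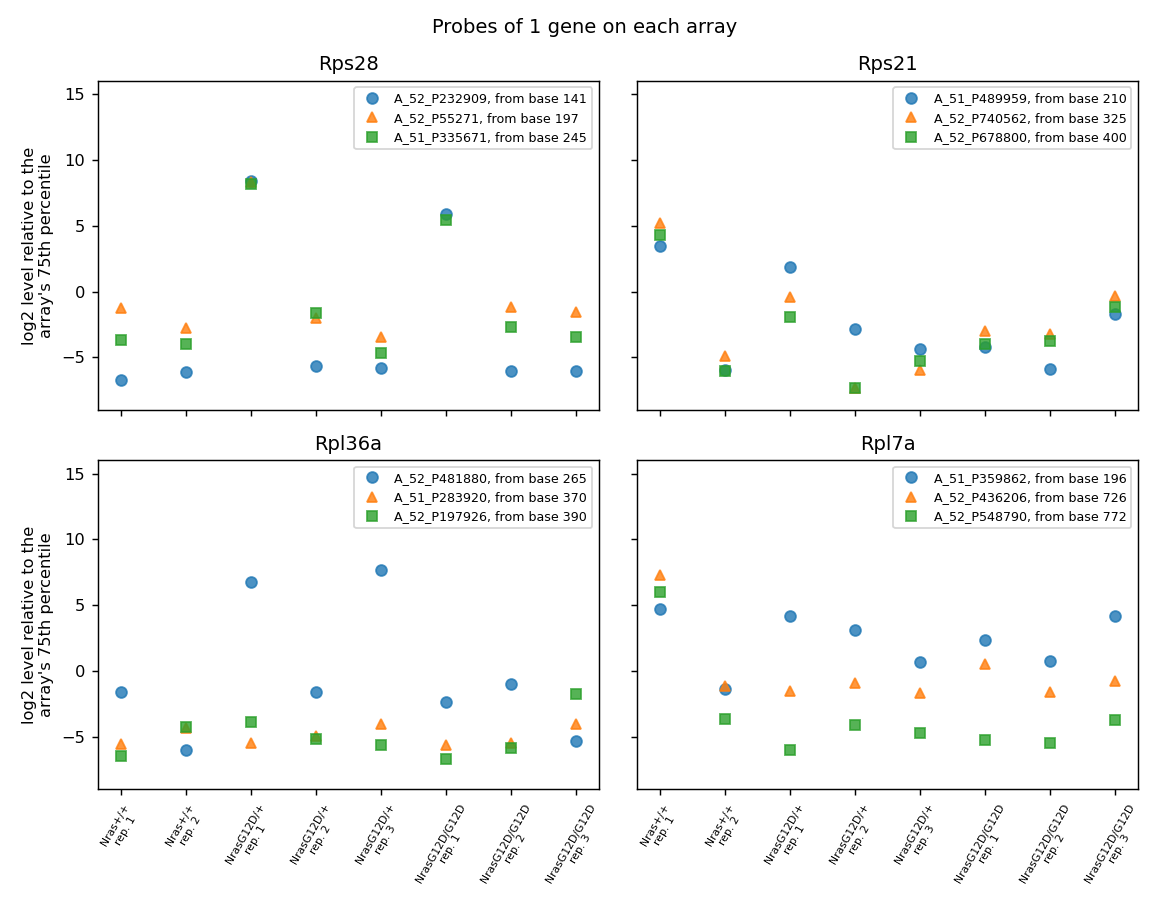
Log2 level of every probe of Rps28, Rps21, Rpl36a and Rpl7a on each array, by the base of the transcript from which the probe starts. Levels are compared between arrays for the same marker and not between markers. All 3 Rps28 markers are high in NrasG12D/+ replicate 1 and the 2 measured in NrasG12D/G12D replicate 1 are high there too, the Rps21 markers in Nras+/+ replicate 1, and in Rpl36a the marker from base 265 alone rises in NrasG12D/+ replicates 1 and 3.

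The first comparison asked what 1 mutant allele did to the family. No ribosomal protein probe passed the threshold of an adjusted p of 0.05 in NrasG12D/+ against Nras+/+, and the share of all 18389 probes called was 0%. More of the 89 probes had a higher than a lower mean in NrasG12D/+, 58 against 31, with a median log2 change of 0.99, where the median of all probes was -0.25. The small subunit had 27 of 37 probes with a higher mean and a median of 1.19, and the large subunit 31 of 52 and a median of 0.46. That shift rested on NrasG12D/+ replicate 1: without it, 43 of 88 probes had a higher mean and the median was -0.03. The order of the subunits turned without it as well, with a median of -0.19 for the small and 0.17 for the large subunit.

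The lowest adjusted p of any ribosomal protein probe in this comparison was 0.817 (limma with Benjamini-Hochberg adjustment), and 6 of 89 had an unadjusted p below 0.05, 3 in each direction, beside 4.7% of all probes. Groups did not overlap for 19 of 89 (21.3%), 11 higher and 8 lower in NrasG12D/+, beside 25.2% of all probes, 9.09% higher and 16.1% lower. The share for the family lay below that of the array. Members that passed the filter through a high mutant array alone are in these counts, so they describe the probes and support no difference. Over the 31 probes above background on all 8 arrays, 21 had a higher mean and the median change was 0.99, or 15 of 30 and 0.09 without NrasG12D/+ replicate 1.

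The probe with the lowest p was that of Rpl38, a large subunit protein known for its part in translating Hox messages in the embryo. Its levels were 2.66 and -2.69 in Nras+/+, 4.90, 4.56 and 3.45 in NrasG12D/+, and 2.02, 2.10 and 2.71 in NrasG12D/G12D. All 3 NrasG12D/+ arrays lay above every other array, and the control arrays lay further apart than the arrays of either mutant genotype. The log2 change in NrasG12D/+ was 4.32 (SE 1.37, adjusted p = 0.817 by limma). In NrasG12D/G12D it was 2.29 (SE 1.37, adjusted p = 0.718 by limma). Without Nras+/+ replicate 2 these changes were 1.64 and -0.39.

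Rpl22, a large subunit protein that binds RNA outside the ribosome and is needed by developing T cells, was dim. Its probe A_51_P387878 had levels of -5.02 and -6.08 in Nras+/+, -3.79, -2.45 and -3.83 in NrasG12D/+, and -4.32, -3.29 and -3.86 in NrasG12D/G12D. Every mutant array lay above both control arrays. Neither Nras+/+ array had the probe above background, so the change is a bound, set by the lowest signal among probes well above background. The bound was at least 1.69-fold higher in NrasG12D/+ (adjusted p = 0.817 by limma) and at least 1.22-fold higher in NrasG12D/G12D (adjusted p = 0.712 by limma). In all such bounds, arrays of the brighter group count at their measured level even where not above background, as NrasG12D/+ replicate 3 was here. The bound is approximate in those cases. The file places this probe within 1 exon on chromosome 4, at 151173849 to 151173908, and the gene's other probe was above background on no array. It is printed because it is the only one that measured the gene.
Rpl22 A_51_P387878: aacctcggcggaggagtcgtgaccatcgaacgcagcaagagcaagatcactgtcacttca

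Among probes with a higher mean in NrasG12D/+, Rpl36a had levels of -1.64 and -6.02 in Nras+/+, 6.77, -1.59 and 7.67 in NrasG12D/+, and -2.37, -1.03 and -5.33 in NrasG12D/G12D, through probe A_52_P481880. Arrays 1 and 3 of NrasG12D/+ were high and array 2 was at the upper control, for a log2 change of 8.11 (SE 2.66, adjusted p = 0.817 by limma). Rpl41, the shortest of the ribosomal proteins, had levels of -1.31 and -0.85, then 0.73, 0.39 and 3.38, then -1.95, 1.28 and -0.81, with the NrasG12D/+ arrays above both controls. Rpl34 had levels of -1.71 and -3.04, then 7.68, 3.85 and -1.35, then 4.10, -3.30 and 3.57.

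Among probes with a lower mean in both mutant genotypes, Rpl37a, a large subunit protein with a zinc finger, was above background on all arrays. Its levels were 2.33 and 3.50 in Nras+/+, 0.39, 0.18 and 1.78 in NrasG12D/+, and 0.87, 0.26 and 0.60 in NrasG12D/G12D. All 6 mutant arrays lay below both controls. The log2 change was -2.13 (SE 0.80, adjusted p = 0.817 by limma) with 1 allele and -2.34 (SE 0.80, adjusted p = 0.712 by limma) with 2. These comparisons share the control arrays, so they are not independent.

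Rps13, a small subunit protein, had levels of 3.58 and 2.37 in Nras+/+, 0.30, 0.41 and 2.29 in NrasG12D/+, and 1.34, -0.20 and -1.41 in NrasG12D/G12D. Here too both controls were the highest arrays, with NrasG12D/+ replicate 3 just below. Rps20 had levels of -0.85 and -2.62, then -3.92, -3.01 and -3.61, then -2.37, -3.31 and -3.14, so that NrasG12D/+ did not overlap the controls while NrasG12D/G12D did. No change of these genes passed the threshold.

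The second comparison set 2 mutant alleles against none, in arrays that never shared a slide, as inferred from the scan date of each array. In NrasG12D/G12D against Nras+/+ no ribosomal protein probe passed the threshold, and 0% of all 18334 probes were called. Of 88 probes, 41 had a higher and 47 a lower mean in NrasG12D/G12D, with a median log2 change of -0.04, beside -0.46 for all probes. The large subunit had 27 of 51 with a higher mean and a median of 0.35, and the small subunit 14 of 37 and -0.19. With the slide as a block the family's median was 1.096, beside -0.76 for all probes. The subunits then turned, with 0.57 for the large and 1.99 for the small. In that fit the slide difference came only from NrasG12D/+ replicates 1 and 2 against replicate 3. Every value of this comparison with the slide as a block thus rests on those arrays, and no such fit was run without replicate 1. The lowest adjusted p was 0.712 by limma, and 4 probes had an unadjusted p below 0.05, all lower in NrasG12D/G12D, beside 6.55% of all probes. Groups did not overlap for 19 of 88 (21.6%), 5 higher and 14 lower, beside 29% of all probes, 5.9% higher and 23.1% lower.

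The probe with the lowest p here was that of Rpl14, of the large subunit, with levels of -2.55 and -3.99 in Nras+/+, -4.27, -3.29 and -5.23 in NrasG12D/+, and -6.87, -6.00 and -6.58 in NrasG12D/G12D. The 3 NrasG12D/G12D arrays lay below every other array and were not well above background. Against Nras+/+, of which 1 array was above background, it was at least 1.98-fold lower (adjusted p = 0.712 by limma). Rps19, the gene most often mutated in Diamond-Blackfan anaemia, had levels of -2.13 and -2.12 in Nras+/+, 0.27, -2.27 and -3.45 in NrasG12D/+, and 0.24, -0.68 and 0.12 in NrasG12D/G12D, through probe A_51_P337290. The NrasG12D/G12D arrays lay above both controls, with a log2 change of 2.02 (SE 1.06, adjusted p = 0.712 by limma). A second tested probe of Rps19, A_52_P404955, had a log2 change of -0.46 in the same comparison (SE 2.03, adjusted p = 0.957 by limma).

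Rpl9 had levels of -3.55 and -4.68, then -4.84, -3.88 and -3.14, then -0.91, -2.49 and -3.59, and Rpl7 of -6.31 and -5.69, then -7.02, -6.98 and -5.55, then -6.53, -2.06 and -3.11. In both genes some NrasG12D/G12D arrays exceeded the controls and 1 did not. Rps2, through probe A_52_P277592, had levels of -2.50 and -1.71, then -1.45, -3.56 and -4.24, then -4.09, -3.86 and -4.31, with all NrasG12D/G12D arrays below both controls.

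Between the mutant genotypes the mean was lower in NrasG12D/G12D for 57 of 88 probes and higher for 31. No ribosomal protein probe passed the threshold and 0% of all 18340 probes were called. The median log2 change was -0.77, beside -0.22 for all probes, with -1.09 for the small and -0.29 for the large subunit. The lowest adjusted p was 0.788 by limma, and 8 probes had an unadjusted p below 0.05, 3 higher and 5 lower, beside 6% of all probes. Groups did not overlap for 8 of 88 (9.09%), 1 higher and 7 lower, beside 12% of all probes, 2.8% higher and 9.17% lower. Without NrasG12D/+ replicate 1 the median was -0.19, with -0.28 for the small and -0.19 for the large subunit. On slide 2, which carried NrasG12D/+ replicate 3 and the NrasG12D/G12D arrays, it was 0.16, with 47 probes higher, and the small subunit median of 0.25 lay above the 0.00066 of the large. The subunits also changed places without NrasG12D/G12D replicate 3, at -0.89 and -1.001.

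Rpl3, a core protein of the peptidyl transferase centre, had levels of -4.54 and -3.48 in Nras+/+, -5.13, -6.58 and -5.47 in NrasG12D/+, and -0.92, 1.03 and -6.09 in NrasG12D/G12D. Only the first and second NrasG12D/G12D arrays were above background, and the third lay among the NrasG12D/+ arrays. The bound was at least 6.49-fold higher than in NrasG12D/+ (adjusted p = 0.788 by limma). Rpl10, a late joining protein of the large subunit, had levels of -3.51 and -2.73, then 0.40, 5.16 and -3.74, then -3.41, -4.58 and -3.18 through probe A_52_P171216. The first and second NrasG12D/+ arrays were high, for a log2 change of -4.33 (SE 1.84, adjusted p = 0.788 by limma) in NrasG12D/G12D. The file places that probe on chromosome 13 and the gene's other probe on chromosome X, and which copy of the gene it measures is uncertain. Rpl6, through A_52_P23041, had levels of -5.59 and -4.43, then -2.26, -3.40 and -5.40, then -6.48, -5.75 and -6.33. Rpl23, through A_52_P651894, had levels of -5.23 and -5.21, then -4.20, 0.85 and -5.07, then -5.64, -5.84 and -6.24. In both, every NrasG12D/G12D array lay below every NrasG12D/+ array, and the bounds were at least 1.48-fold and at least 2.72-fold lower (each adjusted p = 0.788 by limma). For the other tested probe of each gene the mutant groups overlapped. Rpl6 probe A_52_P104918 had a log2 change of -1.16, and Rpl23 probe A_51_P108190 was at least 1.17-fold lower.

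Of the other members chosen by name, Rpsa, which is also the precursor of a laminin receptor, was at 3.02 in NrasG12D/+ replicate 1, at -2.74 in NrasG12D/G12D replicate 2 and between -6.42 and -4.20 elsewhere. It was above background only on those arrays. Rplp0, the base of the stalk, was above background on 1 NrasG12D/+ and 1 NrasG12D/G12D array, with levels between -6.88 and -4.05 over all arrays. Rps27l, a paralog of Rps27 induced by p53, had levels of -4.12 and -3.27, then -3.29, -4.77 and -1.93, then -5.28, -2.81 and -5.62, and the 3 groups overlapped.

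**Figure D5:**
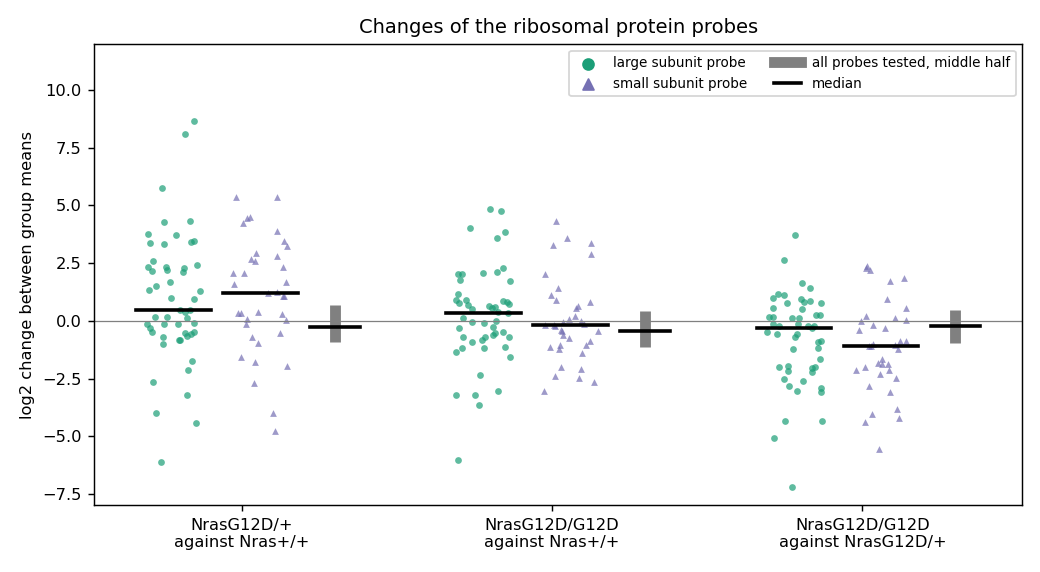
Log2 change between group means for each ribosomal protein probe that passed the filter, in the 3 comparisons. Circles are large subunit probes, triangles small subunit probes, grey bars the middle 50% of all probes tested and black bars medians. The small subunit median is 1.19 in NrasG12D/+ against Nras+/+ and -1.09 in NrasG12D/G12D against NrasG12D/+, but -0.19 and -0.28 without NrasG12D/+ replicate 1, and no probe shown passed the threshold.

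Probes of the same gene often moved apart. In NrasG12D/+ against Nras+/+ all tested probes of a gene had the same sign in 10 of 17 genes with several, in NrasG12D/G12D against Nras+/+ in 7 of 16, and between the mutants in 8 of 16. The median gap between the highest and lowest log2 change of a gene was 3.03, 1.93 and 1.45 in the same order. The widest was 7.96, for Rpl36a. As a rule for reading single genes, the gap within a gene was of the size of the changes named above.

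The promoters were read for the pyrimidine run of ribosomal protein messages, a C at the start site followed by at least 4 pyrimidines on the transcript's strand. RefSeq windows on GRCm38.p6 were given for 57 of the 78 genes, in 68 windows. Such a run began exactly at the annotated start in 13 windows (19.1%), against 823 of 32851 windows of all genes (2.51%), and lay within 10 bases of it in 54.4% against 29.7%. The stretches of 5 of the genes are printed to show it, each from 10 bases before the start to 20 from it, with the run from the start in capitals. They are Rpl38 at chr11:114668570-114668599 (+), Rpl14 at chr9:120571507-120571536 (+), Rps18 at chr17:33955646-33955675 (-), Rps27 at chr3:90213629-90213658 (-) and Rps6 at chr4:86857348-86857377 (-).
Rpl38: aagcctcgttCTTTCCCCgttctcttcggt
Rpl14: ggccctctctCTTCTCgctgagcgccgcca
Rps18: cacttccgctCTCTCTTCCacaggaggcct
Rps27: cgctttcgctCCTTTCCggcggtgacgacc
Rps6: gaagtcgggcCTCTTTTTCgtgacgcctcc

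The changes of genes with and without the run were set side by side. The 15 tested probes of 9 genes with a window that begins with it had a median log2 change of -0.51 in NrasG12D/+ against Nras+/+. The 49 probes of 36 genes whose windows do not had 1.09, and without NrasG12D/+ replicate 1 the medians were -0.92 and 0.38. Rpl35a, Rps18 and Rps21 each gave 3 of the 15 probes, and probes of 1 gene are not separate members. Rpl35a and Rps21 had probes high in Nras+/+ replicate 1 and also have windows without the run. In NrasG12D/G12D against Nras+/+ these medians were -1.06 and -0.06, or 0.19 and 0.94 with the slide as a block. Without Nras+/+ replicate 1 they were 0.59 and 0.24, so their order turned. Those of NrasG12D/+ against Nras+/+ were then 0.29 and 1.51. Between the mutants the medians were -0.87 and -0.86, or 0.21 and -0.37 without NrasG12D/+ replicate 1. The difference between the sets was not tested, and a gene without a match may start elsewhere in these cells.

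Ribosomal proteins whose symbols fall outside the naming rule were tested through 6 probes of 4 genes, and none passed the threshold. Their median log2 changes were 2.13, 0.49 and -1.27 in the 3 comparisons as ordered above. Rpl22l1, the paralog of Rpl22, was above background on all arrays with levels of 2.54 and 3.83, then 0.05, 1.75 and 2.41, then 0.85, 1.59 and 2.78.

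The factors that build ribosomes formed the comparison list: 65 of 83 listed genes were on the array, and 52 probes of 38 genes could be tested. None passed the threshold in any comparison (limma, adjusted p). Of the 52 probes, 5, 1 and 3 had an unadjusted p below 0.05, beside 4.7%, 6.55% and 6% of all probes. Their higher and lower means numbered 21 and 31, 21 and 31, and 23 and 29, with medians of -0.25, -0.28 and -0.10. In NrasG12D/+ against Nras+/+ their median of -0.25 equalled that of all probes. The ribosomal protein probes had 0.99, or -0.03 without NrasG12D/+ replicate 1. Bysl, a small subunit assembly factor, had levels of -2.13 and -1.84 in Nras+/+, 0.89, -0.45 and 0.30 in NrasG12D/+, and -1.11, -0.85 and -1.11 in NrasG12D/G12D, with groups that did not overlap and a log2 change of 2.23 (SE 0.71, adjusted p = 0.817 by limma) with 1 allele. Wdr75, needed for the first steps of small subunit assembly, had levels of -2.55 and -2.63, then -5.44, -4.29 and -5.24, then -5.66, -3.90 and -3.54, below the controls on every mutant array. Ddx18, a helicase of large subunit assembly, had a log2 change of -2.45 in NrasG12D/+, and Mrto4, a stalk assembly factor above background on no Nras+/+ array, was at least 1.01-fold higher. In NrasG12D/G12D against Nras+/+ the lowest p were those of Wdr12 and Nol9, with log2 changes of 3.41 and 1.35, and of Utp6, with -1.63 through A_51_P151756 and at least 1.43-fold lower through A_52_P472958, which no NrasG12D/G12D array had above background. Between the mutants they were those of Nol9, with a log2 change of 1.95, Heatr1, at least 2.14-fold higher, Mrto4, at least 1.12-fold lower, and Ddx21, with -3.36. None of these passed the threshold (adjusted p of 0.712 to 0.817 by limma).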

How the data were processed

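Per the file headers, the deposited scanner files are output of Agilent Feature Extraction 10.5.1.1. The authors' processed signal is an intensity, with background and spatial trend removed per array and no scaling between arrays; the mean signal and local background are deposited intensities without correction. Deposited flags of 0 or 1 mark spots well above background, saturated spots and outliers. The deposited value table holds a ratio, the processed signal over the array's median (largest relative deviation 1.7e-06). The probes' genome build is not stated there.

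Of 45018 spots per array, 1639 are controls. Outlier spots (120 to 464 per array) were set to missing, no spot was saturated, and spots of a probe were averaged as log2 values. Arrays were scaled to the 75th percentile over 6579 probes well above background on all 8 arrays. Probes above background on at least 2 arrays (18418) were tested with limma 3.58.1 (lmFit, eBayes, two-sided) in R 4.3.3, with 1 spread for the 3 groups (prior SD 1.06 with 3.93 prior and 5 residual degrees of freedom), and Benjamini-Hochberg adjustment over all probes tested. Median standard errors of a log2 change were 0.97, 0.97 and 0.87, and 8 arrays limit how precise a change can be. The fit was tested on simulated data. Python 3.11.15, numpy 2.4.6, pandas 2.3.3 and matplotlib 3.10.9 made the summaries and plots.

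Slides were inferred from the scan date in each header, and no slide identifier was read. Arrays of the same scan date are called a slide throughout. By this, Nras+/+ and the first pair of NrasG12D/+ replicates (1 and 2) shared slide 1, and the remaining arrays slide 2. The controls were thus never on a slide with NrasG12D/G12D. Gene names are those of the array's design and can be old; 77 of 78 matched a RefSeq symbol. Named are, per comparison, the 5 probes of lowest p in each direction, probes above background on all arrays, a fixed set of genes, and the 2 of lowest p in each direction of other lists, beside those said to be chosen by value; results of some named members are not reported here. The members and lists were chosen with earlier results of these data known. Alternatives were other scalings, background corrections, filters, blocks and leaving out each array. Medians of the subunits, of probe subsets and of the SD without an array, or by slide, were alternatives chosen after the data were seen.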

Additional observations from a re-analysis of the deposited data

How the results depend on the processing

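No ribosomal protein probe passed the threshold (limma, adjusted p) in any comparison under any alternative run, except Rpl7a probe A_52_P548790 without Nras+/+ replicate 2: leaving out each array in turn gave 0 to 1 probes in NrasG12D/+ and in NrasG12D/G12D against Nras+/+, with log2 changes of -10.96 (adjusted p = 0.047) and -10.85 (adjusted p = 0.035), where the lone control is assumed to vary like the other groups. The family's median minus that of all probes ran from 0.18, without NrasG12D/+ replicate 1, to 1.40 in NrasG12D/+ against Nras+/+, and from -1.002 to 0.12 between the mutants, again without that array at the upper end; the large minus small subunit median ran from -0.88 to 0.37 and from -0.11 to 1.28. With the slide as a block the family's median difference was 1.85 in NrasG12D/G12D against Nras+/+ and 0.54 between the mutants. The subunit difference was -1.42 and -0.25 in the same order. The values of 1.85 and -1.42 rest on NrasG12D/+ replicates 1 and 2 against replicate 3, which alone set the slide difference. Within slide 2 the values between the mutants were 0.54 and -0.25. The replicate block, for numbers that share only a label (same-numbered deviations correlated between -0.09 and 0.07), gave family differences of 1.05, 0.70 and -0.40 and called no probe. The count of probes with a range over 4 log2 units, 64, was 46 under normexp, 61 under quantile normalization and with the value table, and 45 to 63 without an array, in alternatives chosen after the data were seen.

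Of 799 values of named probes under 21 alternatives, 41 changed sign, and 38 of 50 pairs of a named probe and a comparison kept theirs throughout; the cause was not tested. In NrasG12D/+ against Nras+/+, Rplp0 was 0.051 (scaling over all probes), 0.16 (array median), 0.26 (quantile), 0.067 (value table), 0.11 (replicate block) and -0.61 to 0.50 without an array. Rps27l was -0.26 under normexp, -0.33 under the slide block and within slide 1, and -0.33 to 1.08 without an array. Without an array Rps19 was -0.74 to 1.13 through A_51_P337290 and -0.85 to 3.03 through A_52_P404955. In NrasG12D/G12D against Nras+/+, Rpsa was 0.48 (all probes), 0.29 (array median), 0.51 (quantile), 0.62 (value table), 3.16 (slide block), 0.89 (replicate block) and -1.10 to 0.74 without an array. Rps19 A_52_P404955 was 0.030 (all probes), 0.058 (quantile), 0.17 (value table), 2.96 (slide block), 0.012 (replicate block) and -1.38 to 0.46 without an array. Rpl10 was 0.024 (value table), 5.92 (slide block) and 0.35 (replicate block), Rplp0 -0.14 under normexp, and Rpl38 -0.39 to 4.97 without an array. Between the mutants the slide block and slide 2 alone gave Rpl22 0.0007, Rpl10 0.016 and Rps19 A_52_P404955 0.16, the last -3.49 to 0.39 without an array. Signal near background limits what dim probes can show, since Feature Extraction sets 31.2% to 47.1% of spots per array to a surrogate value.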
